A study of Mus musculus with 12 samples.

Results

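The acinar cells of the pancreas make and store the enzymes that digest starch, fat, protein and nucleic acid in the gut. The genes described here are 10 such genes, Amy2a5, Clps, Cpb1, Cel, Cpa1, Rnase1, Ctrl, Cela1, Pnlip and Gp2, followed array by array in spleen RNA. Members were all probe sets (sets of short oligonucleotides that together measure 1 transcript) for which the array annotation gives any of these symbols. This rule found 10 of 45037 probe sets, which cover 9 of the 10 genes, out of 19324 genes annotated on the array. No probe set carried the symbol of Pnlip, Clps had 2 probe sets, and the 1 amylase probe set is shared by the 5 genes Amy2a1, Amy2a2, Amy2a3, Amy2a4 and Amy2a5, whose signals cannot be told apart. The genes were proposed because they stood high in naïve BALB/cByJ spleens, with Gp2 as the exception, so their values there are given as a description with no test.

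Total RNA, by the labels from 50 mg pieces of spleen, was hybridized to 12 whole-genome arrays, 1 per female mouse and 3 per group. The paper names spleen cells or splenocytes as the source, and whether cells were isolated first cannot be told from these descriptions. The groups were PG-immunized BALB/cByJ, PG-immunized BALB/cJ, naïve BALB/cByJ and naïve BALB/cJ. BALB/cByJ and BALB/cJ are sister colonies of the inbred BALB/c strain, with no transgene or targeted allele in any group. Immunized mice had received 1 intraperitoneal injection of cartilage proteoglycan (PG, 100 µg protein) in 2 mg of the adjuvant dimethyldioctadecylammonium (DDA), and their spleens were taken 12 days after it. Naïve mice were untreated, so that adjuvant and antigen are not separated. The methods of the larger colony study describe a lower dose of PG and retired breeders, and call the mice compared on arrays age-matched. Sample numbers were 29, 31 and 48 in immunized BALB/cByJ, 33, 49 and 50 in immunized BALB/cJ, 10 to 12 in naïve BALB/cByJ and 13 to 15 in naïve BALB/cJ. The labels do not call these runs batches. The step between naïve and immunized numbers cannot be told apart from immunization, while the lower and higher numbers of the immunized arrays each include both colonies, and with that split as a block none of the 9 probe sets other than Gp2 was called in the tested comparisons.

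Each value is the log2 signal of a probe set minus its median over the 12 arrays, so that 0 is the median array and 1 is a 2-fold higher signal. The signal level itself was removed by this step. Values can therefore be compared between arrays for 1 probe set but not between genes as levels, and the labelled tissue could be checked only as a deviation between arrays. For 14 genes of spleen cells, among them Ms4a1, Cd79a, Cd3e, Vcam1 and Spic, the median lay between -0.26 and 0.20 in the 12 arrays. In a piece of tissue, more cells of a type and more RNA per cell cannot be told apart.

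Acinar cells are among the most productive secretory cells of the body and pack their enzymes, mostly as inactive precursors, into zymogen granules. Their enzyme genes share a control region bound by the PTF1 complex, in which Ptf1a and an E protein read the letters CANNTG (an E box) and Rbpjl or Rbpj reads a TGGGAA box. The promoters of 4 members are shown because the genes with the largest mean deviations in naïve BALB/cByJ (Amy2a5 and Cpb1), a lipase (Cel) and the 1 member with the opposite pattern (Gp2) can then be compared. They are the 250 bases before the annotated start, from RefSeq on GRCm38.p6, at chr3:113258700-113258949, chr3:20275734-20275983, chr2:28563404-28563653 and chr7:119459273-119459522, all on the minus strand and read 5′ to 3′. Capitals mark CANNTG, which reads alike on both strands, and TGGGAA on either strand (TTCCCA on the other).
Amy2a5: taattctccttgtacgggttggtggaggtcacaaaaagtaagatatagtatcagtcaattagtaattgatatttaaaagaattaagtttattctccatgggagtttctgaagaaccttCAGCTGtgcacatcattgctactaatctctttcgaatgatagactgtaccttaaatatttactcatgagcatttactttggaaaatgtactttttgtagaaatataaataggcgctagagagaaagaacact
Cpb1: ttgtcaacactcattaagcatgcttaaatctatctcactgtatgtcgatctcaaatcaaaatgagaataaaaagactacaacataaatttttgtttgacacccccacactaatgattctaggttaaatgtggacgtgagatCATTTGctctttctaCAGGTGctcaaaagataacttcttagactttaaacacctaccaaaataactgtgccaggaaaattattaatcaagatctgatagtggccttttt
Cel: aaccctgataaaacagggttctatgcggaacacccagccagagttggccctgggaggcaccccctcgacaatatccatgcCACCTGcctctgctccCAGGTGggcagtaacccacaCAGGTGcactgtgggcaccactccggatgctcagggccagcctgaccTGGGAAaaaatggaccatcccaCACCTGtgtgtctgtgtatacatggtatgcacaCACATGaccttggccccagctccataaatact
Gp2: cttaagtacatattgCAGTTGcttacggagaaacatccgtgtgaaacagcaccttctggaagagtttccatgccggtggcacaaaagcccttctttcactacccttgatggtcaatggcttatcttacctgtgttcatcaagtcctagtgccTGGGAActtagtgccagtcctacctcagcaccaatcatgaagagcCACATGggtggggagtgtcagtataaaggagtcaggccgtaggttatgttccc
Of the 9 members with a promoter in the table (all but Clps), 7 held CANNTG, against 66.2% of 32851 promoter windows of this length. TGGGAA stood in 6 of 9, against 21.6% of all windows. Both were present in 4 of 9, against 14.8%. The E box form CACCTG, which is itself a CANNTG and was searched on both strands, stood in 4 of 9, against 17.2%, and 4 of its copies lay in the Cel promoter. Amy2a5 held 1 CANNTG, Cpb1 2, Cel 5 and Gp2 2. Cel and Gp2 held 1 TGGGAA each, while Amy2a5 and Cpb1, with the largest mean deviations, held none. Gp2, whose array pattern was unlike that of the others, was thus not set apart by these letters. A match is a description of the letters and not of a bound site.

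All 9 probe sets other than Gp2 were higher in naïve BALB/cByJ replicate 1 than in any of the 9 arrays outside that group. Their median was 2.94 in replicate 1, 0.35 in replicate 2 and 0.10 in replicate 3 of naïve BALB/cByJ, and between -0.15 and 0.05 in the other 9 arrays. Values over 1 were reached by 8 of the 9 probe sets in replicate 1, by 2 in replicate 2, by 1 in replicate 3, and by none in the other 9 arrays. Over all probe sets, 0.3% passed 1 in replicate 1, 0.0333% in replicate 2 and 0.102% in replicate 3. The heat map of members by array shows the 3 naïve BALB/cByJ arrays as a graded series in amylase and Cpb1, while most other members were high in replicate 1 alone.

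**Figure D1:**
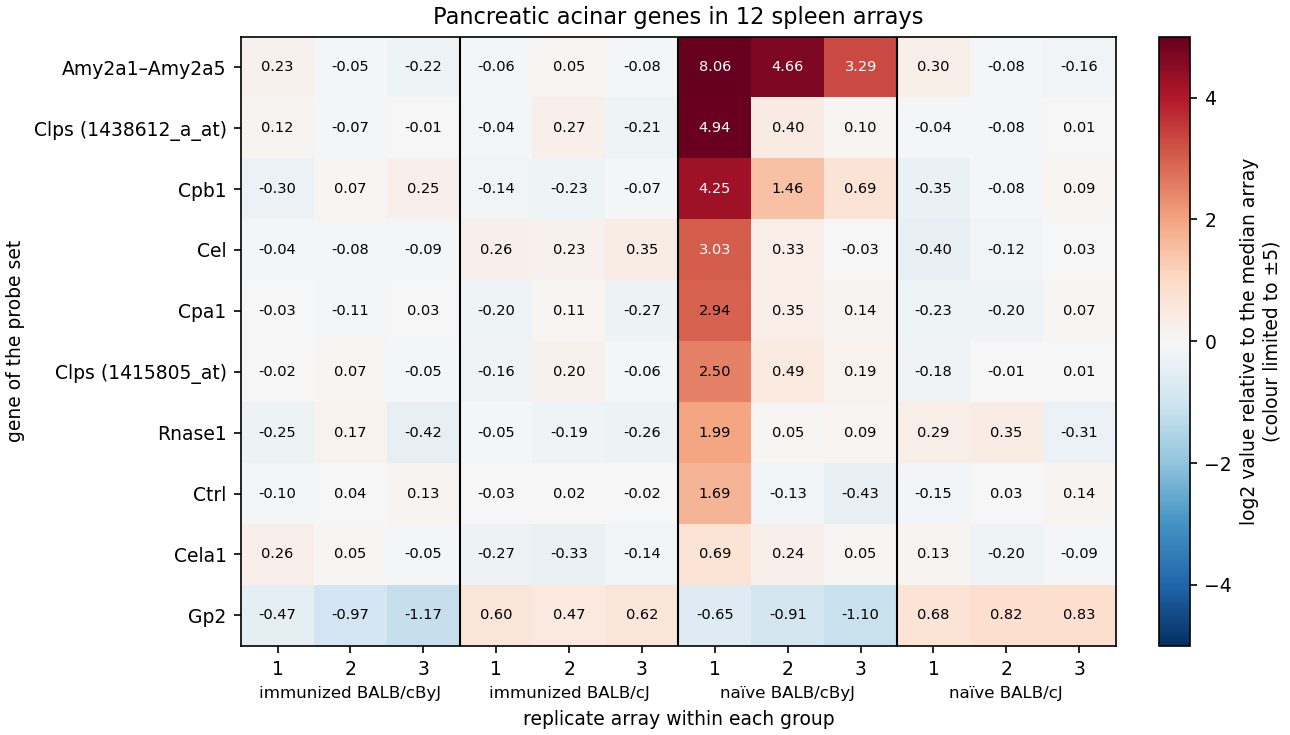
Log2 value relative to the median array of the 10 member probe sets (rows) in the 12 arrays (columns, 3 replicates per group), with each value printed and the colour limited to ±5. The amylase probe set reached 8.06, 4.66 and 3.29 in the naïve BALB/cByJ arrays, Gp2 was below 0 in all 6 BALB/cByJ arrays, and most other values lay near 0.

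The starch-digesting pancreatic α-amylases (the probe set shared by the 5 Amy2a genes) had the highest values. They stood at 0.23, -0.05 and -0.22 in immunized BALB/cByJ, -0.06, 0.05 and -0.08 in immunized BALB/cJ, 8.06, 4.66 and 3.29 in naïve BALB/cByJ, and 0.30, -0.08 and -0.16 in naïve BALB/cJ arrays. All 3 naïve BALB/cByJ arrays were far above the other 9, at 267, 25.3 and 9.75 times the median array. Between these 3 animals the signal differed by 4.78 on the log2 scale, whereas the other 9 arrays spanned 0.52.

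The 2 carboxypeptidases, which remove single amino acids from the end of peptides, followed at lower values. Cpb1, whose product removes arginine and lysine, stood at -0.30, 0.07 and 0.25 in immunized BALB/cByJ, -0.14, -0.23 and -0.07 in immunized BALB/cJ, 4.25, 1.46 and 0.69 in naïve BALB/cByJ, and -0.35, -0.08 and 0.09 in naïve BALB/cJ arrays. Cpa1, whose product prefers aromatic and aliphatic residues, stood at -0.03, -0.11 and 0.03 in immunized BALB/cByJ, -0.20, 0.11 and -0.27 in immunized BALB/cJ, 2.94, 0.35 and 0.14 in naïve BALB/cByJ, and -0.23, -0.20 and 0.07 in naïve BALB/cJ arrays. In both genes, as for amylase, all 3 naïve BALB/cByJ arrays lay above the other 9, by a small margin for replicate 3 of Cpa1. No other member had this order, which held for 1.47% of all probe sets.

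The genes of fat digestion passed 1 in replicate 1 only. Clps encodes colipase, the small cofactor that anchors pancreatic lipase to bile-coated fat droplets. Its probe set whose name ends in _a_at stood at 0.12, -0.07 and -0.01 in immunized BALB/cByJ, -0.04, 0.27 and -0.21 in immunized BALB/cJ, 4.94, 0.40 and 0.10 in naïve BALB/cByJ, and -0.04, -0.08 and 0.01 in naïve BALB/cJ arrays. Its other probe set stood at -0.02, 0.07 and -0.05 in immunized BALB/cByJ, -0.16, 0.20 and -0.06 in immunized BALB/cJ, 2.50, 0.49 and 0.19 in naïve BALB/cByJ, and -0.18, -0.01 and 0.01 in naïve BALB/cJ arrays. The Clps probe sets gave the same order of the naïve BALB/cByJ arrays but different sizes (30.6 and 5.66 times the median array in replicate 1), so a fold here belongs to a probe set and not to a gene. Cel, the bile salt-activated lipase, stood at -0.04, -0.08 and -0.09 in immunized BALB/cByJ, 0.26, 0.23 and 0.35 in immunized BALB/cJ, 3.03, 0.33 and -0.03 in naïve BALB/cByJ, and -0.40, -0.12 and 0.03 in naïve BALB/cJ arrays. Apart from replicates 1 and 2 of naïve BALB/cByJ, the high arrays of Cel were the 3 of immunized BALB/cJ, which did not overlap with immunized BALB/cByJ or naïve BALB/cJ.

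The other 2 proteases and the ribonuclease had smaller values. Ctrl, a chymotrypsin-like protease, stood at -0.10, 0.04 and 0.13 in immunized BALB/cByJ, -0.03, 0.02 and -0.02 in immunized BALB/cJ, 1.69, -0.13 and -0.43 in naïve BALB/cByJ, and -0.15, 0.03 and 0.14 in naïve BALB/cJ arrays. Rnase1, the pancreatic ribonuclease, stood at -0.25, 0.17 and -0.42 in immunized BALB/cByJ, -0.05, -0.19 and -0.26 in immunized BALB/cJ, 1.99, 0.05 and 0.09 in naïve BALB/cByJ, and 0.29, 0.35 and -0.31 in naïve BALB/cJ arrays. For both genes replicates 2 and 3 of naïve BALB/cByJ overlapped with or lay below the other groups, and for Ctrl replicate 3 was the lowest of the 12. Cela1, an elastase, had the smallest value in replicate 1, at 0.26, 0.05 and -0.05 in immunized BALB/cByJ, -0.27, -0.33 and -0.14 in immunized BALB/cJ, 0.69, 0.24 and 0.05 in naïve BALB/cByJ, and 0.13, -0.20 and -0.09 in naïve BALB/cJ arrays. Its naïve groups overlapped, and its value in replicate 1 was 1.61 times the median array.

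Gp2 encodes the main glycoprotein of the zymogen granule membrane and is also a surface receptor for bacteria on intestinal M cells. It stood at -0.47, -0.97 and -1.17 in immunized BALB/cByJ, 0.60, 0.47 and 0.62 in immunized BALB/cJ, -0.65, -0.91 and -1.10 in naïve BALB/cByJ, and 0.68, 0.82 and 0.83 in naïve BALB/cJ arrays. The colonies did not overlap in either state (6.88% of all probe sets were lower without overlap in immunized and 11.9% in naïve BALB/cByJ), and all 6 BALB/cByJ arrays were low, including the array in which the other members were highest. The difference between colonies was -1.43 (SE 0.16) in immunized and -1.66 (SE 0.16) in naïve mice. Since Gp2 was chosen with these differences known, no test is given for them.

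**Figure D2:**
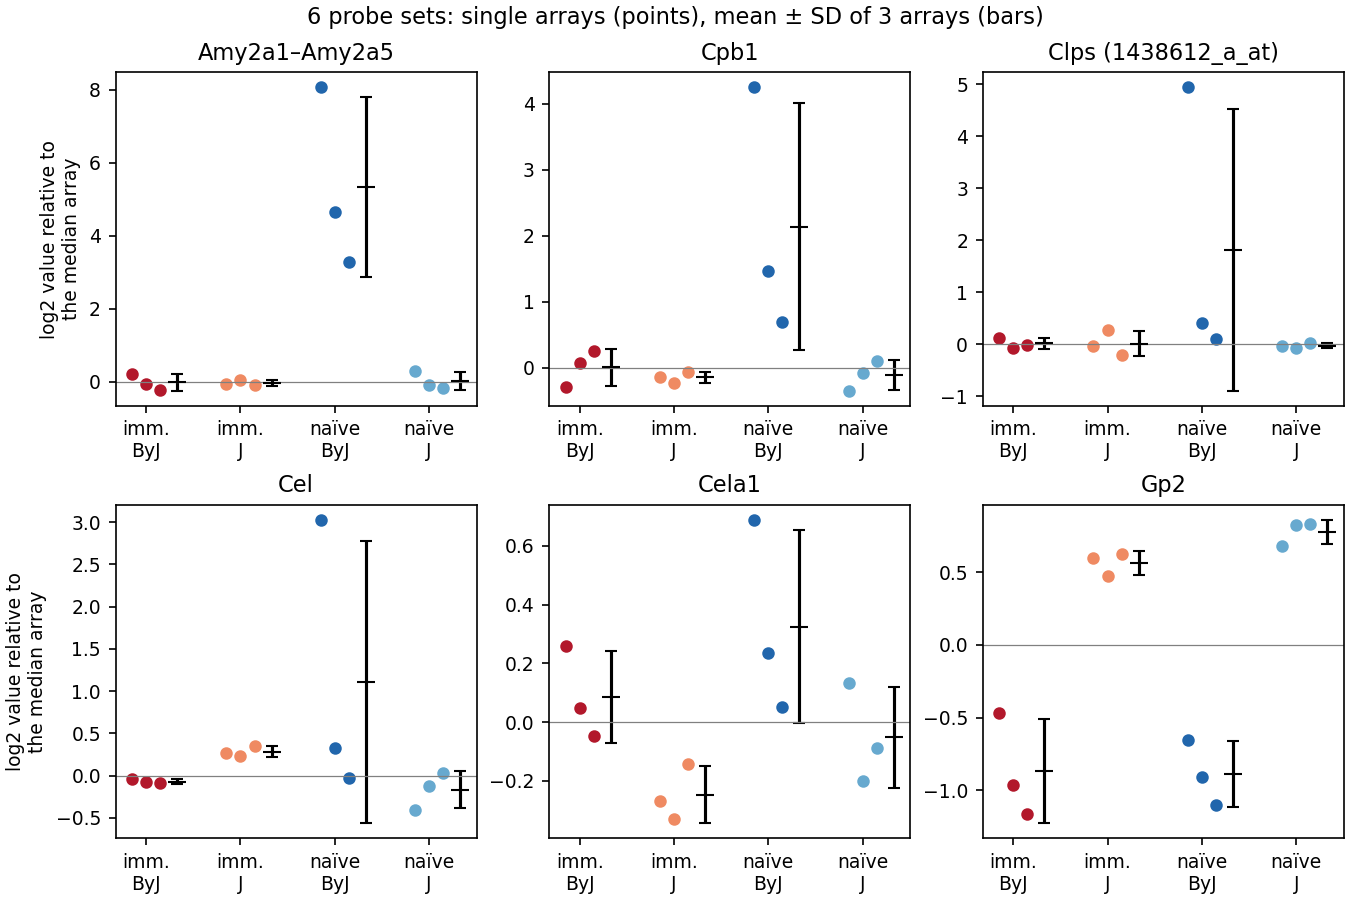
Log2 value relative to the median array of 6 probe sets (panels) in immunized (imm.) and naïve BALB/cByJ (ByJ) and BALB/cJ (J) spleens, with 1 point per array and a bar for the mean ± SD of the 3 arrays of a group. Replicate 1 of naïve BALB/cByJ stands alone for Clps (4.94) and Cel (3.03), all 3 arrays of the group are high for amylase, and Gp2 separates the colonies.

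As a description, the log2 difference of naïve BALB/cByJ minus naïve BALB/cJ was 5.32 for amylase (SE 0.81), 2.24 for Cpb1 (SE 0.63), 1.85 and 1.12 for the Clps probe sets (SE 0.89 and 0.42), 1.28 for Cel (SE 0.55) and 1.26 for Cpa1 (SE 0.52). It was 0.60 for Rnase1 (SE 0.40), 0.38 for Cela1 (SE 0.15) and 0.37 for Ctrl (SE 0.38). All 9 were positive, with a median of 1.26, against -0.008 over all 45037 probe sets. The naïve groups did not overlap for 5 of the 9, namely amylase, Cpb1, Cpa1 and both Clps probe sets, and 9.76% of all probe sets were higher without overlap, a share from which nothing is read because the members were chosen on this contrast.

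Replicate 1 carried most of the size of these differences. Without it, the median of the 9 differences was 0.32, and 2 of the 9 (amylase at 3.95 and Cpb1 at 1.19) stayed above 1, against 6 with all arrays. Those of the Clps probe sets became 0.29 and 0.40, Cel 0.32, Cpa1 0.37, Cela1 0.19, Rnase1 -0.05 and Ctrl -0.28. Without replicate 2 or replicate 3 the median was 1.66 or 1.76. That of Gp2 was -1.78 without replicate 1. Immunized minus naïve BALB/cByJ shares the same 3 naïve arrays, and its 9 differences ran from -5.35 for amylase to -0.24 for Cela1, with a median of -1.18 and -0.0002 over all probe sets. For 5 of the 9 (amylase, Cpb1, Cpa1, Cel and a Clps probe set) all immunized arrays were lower, as for 5.2% of all probe sets.

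Members with higher values in 1 naïve BALB/cByJ array tended to have higher values in the others. Across the 9 probe sets, Pearson's r was 0.877 between replicates 1 and 2 (Spearman's ρ 0.8), 0.860 between replicates 1 and 3 (0.65) and 0.993 between replicates 2 and 3 (0.917). These are correlations across probe sets, which share their arrays and are not independent replicates, and the amylase probe set is the farthest point in each. Across all 60 probe sets of acinar genes in the lists used here, r was 0.714, 0.634 and 0.929 for the same pairs of arrays and ρ was lower, at 0.533, 0.297 and 0.623. In the scatter of these probe sets nearly all points with high values in replicate 1 lie well below the line of equal values, and those near 0 in replicate 1 scatter about 0 in the others.

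**Figure D3:**
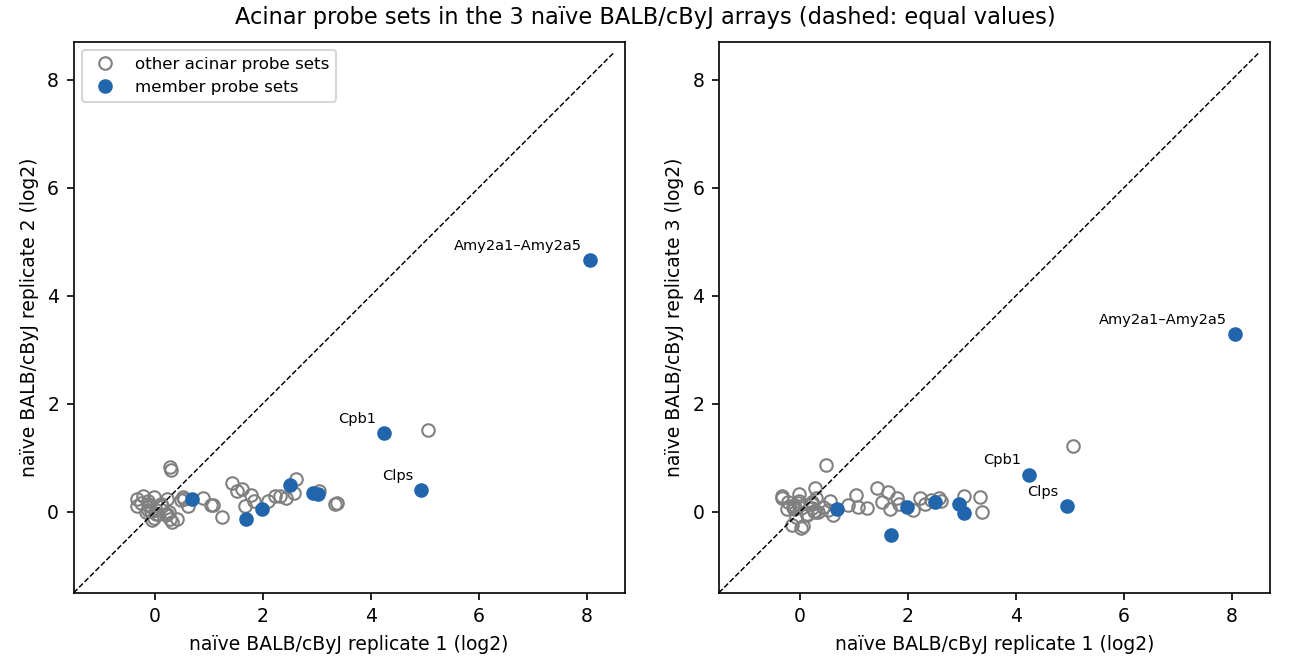
Log2 value relative to the median array of 60 acinar probe sets in naïve BALB/cByJ replicate 1 (horizontal axis) against replicate 2 (left) and replicate 3 (right), with member probe sets filled and equal values dashed. Amylase, at 8.06 in replicate 1, reached 4.66 in replicate 2 and 3.29 in replicate 3, while Clps, at 4.94 in replicate 1, was at 0.40 and 0.10.

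Between arrays, the 36 pairs of the 9 probe sets had a median r of 0.891 over 12 arrays. Over the 11 arrays without naïve BALB/cByJ replicate 1 the median was 0.281, and over the 9 arrays outside naïve BALB/cByJ it was -0.036, with pairs from -0.90 to 0.89. The likeness among the members thus came mostly from 1 array. The 2 Clps probe sets had an r of 0.986 over 12 arrays and 0.597 over the 9. Gp2 had a median r of -0.316 with the 9 probe sets over 12 arrays.

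The tested differences were those between immunized colonies and between immunized and naïve BALB/cJ. The first compares no naïve array. The second shares the naïve BALB/cJ arrays with the contrast on which the members were chosen, so its test is not independent of that choice. None of the 9 probe sets passed the test in either (limma with Benjamini-Hochberg adjustment over 45037 probe sets). In immunized mice the differences, BALB/cByJ minus BALB/cJ, ran from -0.35 for Cel to 0.33 for Cela1, with adjusted p from 0.621 to 1.0 and a median of 0.01, against -0.007 over all probe sets. The background of calls was 0.12% of all probe sets, with 34 higher and 20 lower. At an unadjusted p under 0.05 stood 1 of the 9 (Cela1, difference 0.33, SE 0.15, 95% confidence interval 0.01 to 0.65), against 7.92% of all probe sets. The immunized groups did not overlap for Cela1, which was higher in BALB/cByJ (8.14% of all probe sets were higher without overlap), and for Cel, which was lower (6.88%).

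For immunized minus naïve BALB/cJ, the differences ran from -0.28 for Rnase1 to 0.45 for Cel, with adjusted p from 0.738 to 1.0 in the same limma fit and a median of -0.02, against -0.0008 over all probe sets. No probe set at all was called in this comparison (0%), while 4137 or 9.19% had an unadjusted p under 0.05, none of them a member, and the analysis of variance with Student-Newman-Keuls comparisons of the methods called 28 probe sets, none of them among the 9. Cel was higher without overlap in all 3 immunized arrays (7.53% of all probe sets were). Gp2 was lower without overlap (9.51% of all probe sets were), at -0.21 (SE 0.16). It was chosen with colony differences known that use these same arrays, so no test is given for it here.

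The spread of the naïve BALB/cByJ arrays entered these tests. With all 12 arrays in the fit, the SE of the 9 probe sets lay between 0.15 and 0.89 and the 95% confidence interval for amylase in immunized colonies was -1.75 to 1.78. When only the 6 arrays under comparison were fitted, the SE lay between 0.07 and 0.15 and that interval was -0.25 to 0.28. No member was called then either. For the immunized colonies the lowest adjusted p was 0.33 (Cel, -0.35, interval -0.52 to -0.19), and for immunization in BALB/cJ it was 0.286 (Cel, 0.45, interval 0.19 to 0.70), both by limma.

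**Figure D4:**
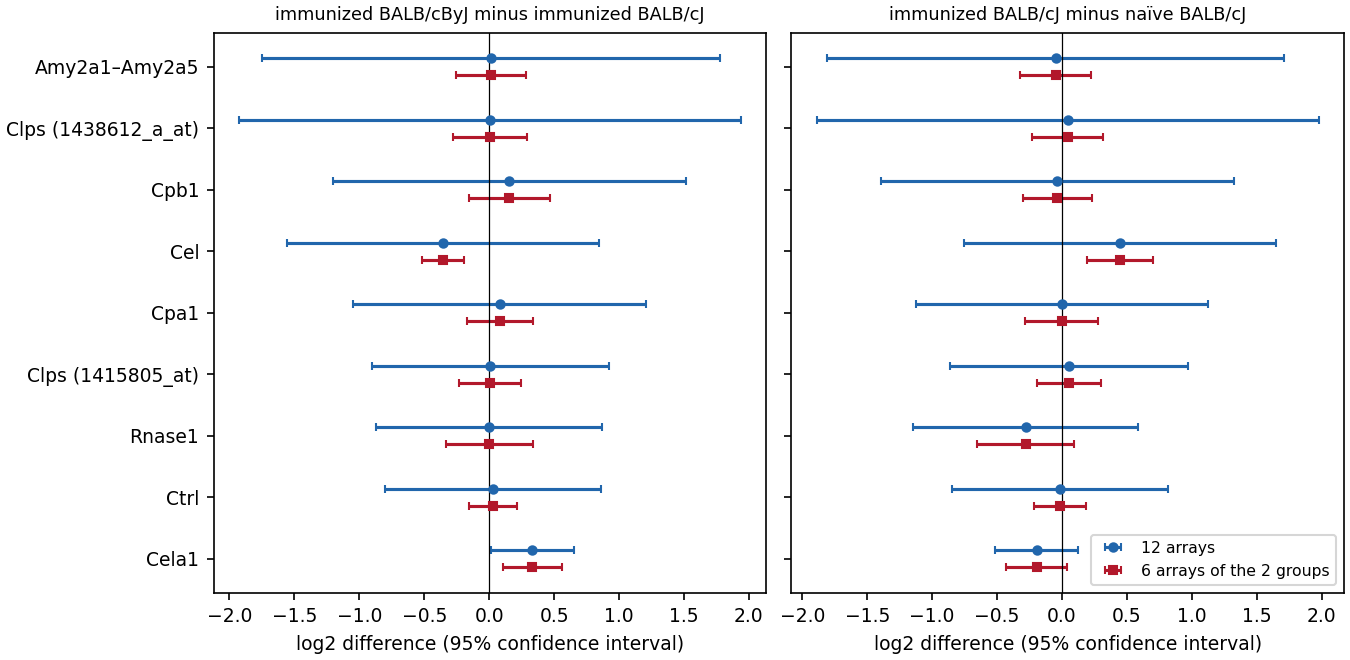
Log2 difference with its 95% confidence interval for the 9 probe sets other than Gp2 (rows), for immunized BALB/cByJ minus immunized BALB/cJ (left) and immunized minus naïve BALB/cJ (right), from the fit over 12 arrays (circles) and over the 6 arrays of the 2 compared groups (squares). The intervals over 12 arrays are wider, up to -1.93 to 1.94 for a Clps probe set, and no difference was larger than 0.45.

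Other genes of the acinar cell were examined as lists, where a gene's value averages the probe sets annotated to no other gene. Of 20 listed enzyme genes, 17 had a probe set and 9 had one of their own. The 17 include Amy2a1 to Amy2a4, which have only the amylase probe set already described as a member. The median of these 9 was 1.59, 0.24 and 0.13 in naïve BALB/cByJ replicates 1, 2 and 3, with 5 of 9 above 1 in replicate 1 and none in any other array. Cela2a, an elastase, was at 3.03, Pnliprp1, a lipase-related protein, at 2.42, Cela3b at 2.11 and the chymotrypsinogen Ctrb1 at 2.10 in replicate 1, and none of the 4 passed 0.40 in replicates 2 and 3. The phospholipase Pla2g1b was the lowest, at 0.01. Of 3 other probe sets shared between genes, 2 gave the highest values of the list apart from amylase. That of Try4 and Try5, 2 trypsin genes, stood at 5.06, 1.52 and 1.23 in the 3 naïve BALB/cByJ arrays, and that of Cela3a and Cela3b at 3.37, 0.16 and -0.01. The third, shared by the trypsin genes Prss1 and Prss3 and by Gm10334 and Gm5771, stood at 0.22, -0.06 and 0.14. The probe set of Try4 and Try5 was, like amylase, above 1 in all 3 arrays of the group, and that of Prss1 and Prss3 in none.

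Of 20 measured genes for other secreted or membrane proteins of the acinar cell, 3 were above 1 in replicate 1. These were Reg1 (2.61), a regenerating protein of pancreatic juice, Zg16 (1.78), a zymogen granule lectin, and Sycn (1.54), the granule protein syncollin. Cuzd1 was at 0.52, the gastrin receptor Cckbr was the lowest at -0.33, and the median was 0.09. The 9 measured transcription factors of the acinar lineage had a median of -0.16 in replicate 1 and none above 1. Ptf1a, the acinar master regulator, was at -0.01, Xbp1, the secretory stress factor that plasma cells also use, at 0.10, Foxa2 at -0.005, Nr5a2 at -0.07 and Gata6 at -0.30. Xbp1 had the highest value of the 9 factors in this array. It stood higher in several arrays where no member was above 1, up to 0.31 in naïve BALB/cJ replicate 1.

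Genes of the other pancreatic cells were near 0 in replicate 1. The 18 measured islet genes had a median of -0.07 and none above 1, with Slc30a8 at 0.16, Ins2 at 0.01, Nkx2-2 at -0.004, Iapp at -0.02 and Pcsk1 at -0.37. The 13 duct and epithelial genes had a median of -0.08 and none above 1, with Cdh1 at 0.89, Cftr at 0.06 and Krt19 at -0.45. Genes of salivary glands, which have their own amylase Amy1 (0.68), had a median of -0.02 over 8 genes, and those of stomach and intestine had a median of 0.0008 over 15, none above 1 in either list. The 8 liver genes had a median of -0.05, with only Cyp2e1 (1.42) above 1 and Alb the lowest at -0.28. The 8 adipose genes had a median of 0.06, with only Adipoq (1.44) above 1 and Cidea the lowest at -0.23. In naïve BALB/cByJ replicates 1, 2 and 3, Adipoq stood at 1.44, -0.34 and -1.07 and Cyp2e1 at 1.42, 0.06 and -1.29, falling in the same order as amylase and Cpb1. In the 9 arrays outside naïve BALB/cByJ, Adipoq varied widely, between -1.88 and 2.81, as did Cyp2e1, between -1.75 and 1.25. Adipoq and Cyp2e1 were highest among those 9 in immunized BALB/cJ replicate 1, where no member was above 1. The 7 mesothelial genes had a median of -0.006 in naïve BALB/cByJ replicate 1, against 1.02 in immunized BALB/cJ replicate 1. The part of these tissues in the result was not tested.

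**Figure D5:**
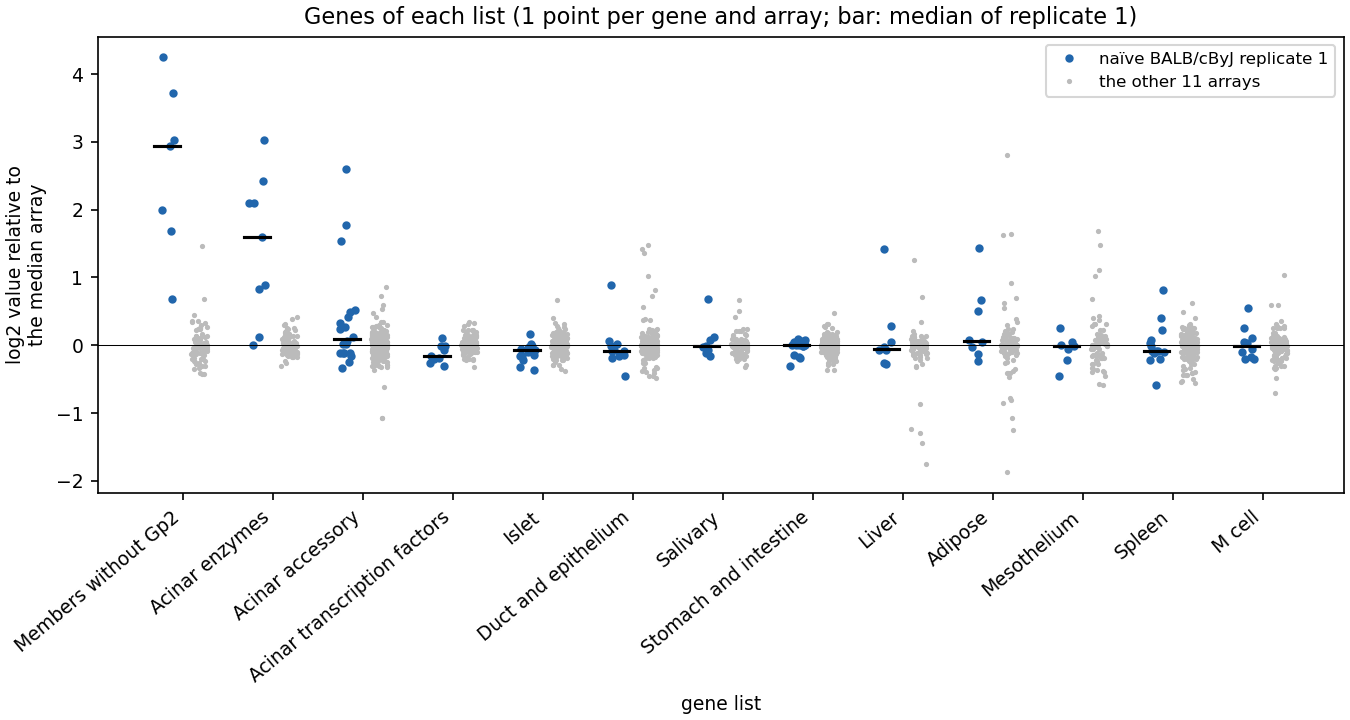
Log2 value relative to the median array of every gene of 13 lists (horizontal axis), with naïve BALB/cByJ replicate 1 in blue to the left, its median as a bar, and the other 11 arrays in grey to the right. The members without Gp2 had a median of 2.94 over 7 genes with a probe set of their own and the further acinar enzymes 1.59, while the medians of the other lists lay between -0.16 and 0.09.

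Spleen genes in naïve BALB/cByJ replicate 1 had a median of -0.08, from -0.59 for Cd4 to 0.82 for the macrophage receptor Marco, with the leukocyte antigen Ptprc at 0.40. The array also had the largest spread of all probe sets (SD 0.265, against 0.130 to 0.226 in the other 11). Control transcripts are probed at either end, and the ratio of 3′ to 5′ signal reflects RNA integrity and labelling. That ratio itself was removed with the signal level, so only its deviation between arrays is left. The centred 3′ minus the centred 5′ value was highest there, at 0.157 for β-actin (-0.092 to 0.087 in the others) and 0.301 for Gapdh (-0.128 to 0.108). The part of RNA quality in the result was not tested.

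The genes most like the members were searched by Pearson's r with the mean of the 9 probe sets over the 12 arrays, members left out. The 12 with the highest r were 2210010C04Rik (0.996), Reg1 (0.991), Prss2 (0.989), Cela3b (0.986), Pnliprp1 (0.984), Cela2a (0.982), Dmbt1 (0.978), Zg16 (0.978), Ctrb1 (0.971), Sycn (0.970), Gm5547 (0.962) and Dclre1a (0.956). Dmbt1, a mucosal scavenger receptor protein, reached 1.43 in replicate 1, and 2210010C04Rik stood at 5.61, 1.73 and 0.70 in the 3 naïve BALB/cByJ arrays, a grading like that of Cpb1. Over the 9 arrays outside naïve BALB/cByJ the most similar genes were Xpo1 (0.940), Dhx37 (0.937), Fam163b (0.935), Cops3 (0.927), B230217C12Rik (0.922) and 1700026J12Rik (0.915), none of which is among the first 12. These are the highest r of 34945 probe sets over only 9 arrays. In those arrays the members themselves had a median r of -0.036 with each other, so no likeness to acinar genes is read from this list.

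For Gp2, the genes with the highest r over 12 arrays were Tmem181a (0.977), Ndnf (0.976), Rtf2 (0.975), Cd207 (0.972), Arl2bp (0.970) and St6galnac5 (0.963). All of these genes were below 0 in every BALB/cByJ array and above 0 in every BALB/cJ array, as Gp2 was, so their r follows the split between colonies. None of them is an acinar gene of the lists. Of 10 measured genes linked to M cells, the other known site of Gp2, none was above 1 in naïve BALB/cByJ replicate 1. Aif1 was at 0.54 there and Pglyrp1 at -0.21. Gp2 itself was low in that array (-0.65), so the source of Gp2 cannot be read from these values. In the BALB/cJ arrays, where Gp2 was high, the median of the 10 genes lay between -0.09 and 0.04. Only Ccl9 passed 1 in them, at 1.03 in immunized BALB/cJ replicate 1. An M cell source of Gp2 was not tested.

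In naïve BALB/cByJ replicate 1, 44 probe sets stood more than 1 above the highest of the 9 arrays outside the group, and 25 of them belonged to the members or the acinar lists. At more than 2, it was 15 of 19. Gp2 apart, the members and these lists hold 60 of the 45037 probe sets. They were chosen with these data known, so nothing is read from these shares. Among probe sets that name 1 gene, and with the genes of the lists and those most like the members (2210010C04Rik and Dmbt1 among them) left out, the largest gaps were those of Cenpe (1.26), Msr1 (1.23), Cd209b (1.23), Smox (1.23), Tcf7l2 (1.09), Ammecr1 (1.04), Mcoln3 (0.95) and Nucks1 (0.94). Probe sets with no gene in the annotation had gaps of up to 4.32 and 2.88. Msr1 and Cd209b encode scavenger and lectin receptors of macrophages, and Cenpe a kinesin of the mitotic spindle. Not all of these gaps were particular to replicate 1. In naïve BALB/cByJ replicates 1, 2 and 3, Cenpe stood at 1.70, 0.51 and 0.76 and Smox at 1.53, 0.90 and 1.08. For both genes all 3 arrays lay above the other 9. Msr1 (2.26, -0.0004 and -0.13) and Cd209b (1.48, 0.06 and -0.44) were high in replicate 1 alone of the group. Msr1 was also at 1.03 in immunized BALB/cJ replicate 1.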

How the data were processed

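The authors processed 12 Affymetrix mouse whole-genome arrays in GeneSpring GX by robust multi-array averaging (RMA), that is quantile normalization and median polish. The deposited log2 values are then centred: the authors took the 12-array median of every probe set off its values, so no signal level is left and no filter on dim probe sets was possible. The base of the logarithm was read as 2. All 12 columns were used. Controls (64 probe sets) were set aside, and for the other 45037 a mean per group was estimated with limma 3.58.1 (R 4.3.3, lmFit and eBayes), with Benjamini-Hochberg adjustment and a threshold of 0.05. The number of arrays, 3 per group, limits the precision.

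The members and the gene lists were chosen with earlier results of these data known, so comparisons that include naïve BALB/cByJ arrays have no test for members. Named genes were all members, the highest 4 and the lowest 1 of each list in naïve BALB/cByJ replicate 1, those most correlated with the members or with Gp2, and those with the largest gaps. Names came from the platform annotation, and promoters from RefSeq (GRCm38.p6). Alternatives were the analysis of variance with Student-Newman-Keuls comparisons that the methods name, quantile normalization, array centring, a trended and robust variance, array weights, fits of only 2 groups, a replicate block, sample-number runs, fewer probe sets, gene means and leaving out each array. Leaving out all naïve BALB/cByJ arrays was chosen after seeing the data. On simulated data the limma step was tested first. Python 3.11.15 with pandas 2.3.3 and matplotlib 3.10.9 drew the figures.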

Additional observations from a re-analysis of the deposited data

Results flagged for a closer look

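Cel, the bile salt-activated lipase, had immunized minus naïve differences of opposite sign in the colonies. Immunized minus naïve was -1.18 (SE 0.55) in BALB/cByJ and 0.45 (SE 0.55) in BALB/cJ on the log2 scale, and in each colony the immunized and naïve arrays did not overlap (lower in 5.2% of all probe sets in BALB/cByJ, higher in 7.53% in BALB/cJ). In BALB/cJ the difference did not pass the test (adjusted p = 0.862 by limma), and in BALB/cByJ it was not tested. The highest immunized BALB/cByJ array was at -0.042 and the lowest naïve one at -0.028. The BALB/cByJ value rests on naïve replicate 1 (3.03, against 0.33 and -0.03 in replicates 2 and 3) and was -0.22 without it. The difference between the colonies was not tested.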

How the results depend on the processing

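No member passed the test in the tested comparisons under any alternative (413 results of single probe sets, lowest adjusted p 0.228 by limma). These include Gp2 for immunized minus naïve BALB/cJ, from which nothing is read. The number of members called other than Gp2 was 0 throughout. In immunized colonies 54 probe sets were called, 88 after quantile normalization of the deposited values, and 40 to 63 when 1 array was left out. For immunized minus naïve BALB/cJ, 0 were called, against 651 with array weights (254 higher, 397 lower), 28 by the analysis of variance of the methods, and 0 to 3 when 1 array was left out (3 without immunized BALB/cJ replicate 3). The cause was not tested. The median of all 10 members ran from -0.014 to 0.084 in immunized colonies (highest without immunized BALB/cJ replicate 2), from -0.090 to 0.058 for immunized minus naïve BALB/cJ (highest without naïve BALB/cJ replicate 3), and from 0.30 to 1.66 in naïve colonies (1.19 with all arrays, 0.30 without naïve BALB/cByJ replicate 1, 0.66 with array weights, 0.78 after quantile normalization). For immunized minus naïve BALB/cByJ it ran from -1.59 to -0.24 (-1.12 with all arrays, -0.24 without that replicate, -0.61 with array weights, -0.71 after quantile normalization). Replicate numbers did not pair the arrays (correlations of same-numbered arrays from -0.264 to 0.368). With the replicate block, 60 probe sets were called in immunized colonies and 0 for immunized minus naïve BALB/cJ, no member among them, and the medians were 0.011 and -0.025 as without it. Small uncalled differences changed sign. In immunized colonies these were -0.00334 (quantile normalization) and -0.000679 (array weights) for the Clps probe set ending in _a_at, and, with the sample-number run as a block, -0.0299 for amylase and -0.092 for Rnase1. For immunized minus naïve BALB/cJ they were -0.000701 for the other Clps probe set (_at) and 0.0368 for amylase with the run as a block, 0.0113 for amylase and 0.0468 for Cpa1 with array weights, and 0.0026 for Cpa1 after array centring. Leaving out 1 array also turned signs in immunized colonies, where the differences ran from -0.0703 to 0.113 for Clps (_at), -0.108 to 0.116 for amylase, -0.169 to 0.127 for Rnase1, -0.0230 to 0.0905 for Ctrl and -0.101 to 0.138 for Clps (_a_at). For immunized minus naïve BALB/cJ they ran from -0.0508 to 0.133 for Clps (_at), -0.138 to 0.0883 for amylase, -0.117 to 0.0923 for Cpa1, -0.155 to 0.0669 for Cpb1, -0.0926 to 0.0491 for Ctrl and -0.0888 to 0.150 for Clps (_a_at). The array medians of all members moved beyond the spread of their group to 0.0, 0.0123 and -0.00228 in immunized BALB/cByJ replicates 1, 2 and 3 and -0.00922 in naïve BALB/cJ replicate 2 relative to the 9 arrays outside naïve BALB/cByJ, to 0.0478 and -0.176 in immunized BALB/cByJ replicate 2 and naïve BALB/cJ replicate 1 without probe sets ending in _s_at, _x_at or _a_at, and to 0.0376 in immunized BALB/cByJ replicate 2 without Gp2. Of the other values, 359 under planned or added settings and 457 with 1 array left out kept their direction and side of the threshold or stayed within the spread of replicates. In comparisons with naïve BALB/cByJ that spread includes replicate 1 and is wide, so no stability is read from it. It took in sign changes between naïve colonies without that replicate, of Ctrl (0.37 to -0.28) and Rnase1 (0.60 to -0.05). The removed signal level limits what can be said of genes near background.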
